A study of Rattus norvegicus with 18 samples.

Results

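Genes that report stress of the endoplasmic reticulum (ER) and activity of the transcription factor Atf4 were followed in whole-liver RNA of male Wistar rats. The genes were Hspa5, Xbp1, Herpud1, Dnajb9, Atf3, Atf4, Ddit3, Trib3, Asns and Chac1, taken by symbol as 10 of the 32623 genes in the count files. All 10 were high enough to be tested among 12904 genes. The study developed rat models of non-alcoholic steatohepatitis (NASH) and sequenced the livers of 18 rats, with 1 library per rat and 6 rats in each of 3 groups. Control rats received standard chow and ordinary water for 12 weeks. NASH rats inhaled carbon tetrachloride (CCl4, a hepatotoxin) and drank phenobarbital for 6 weeks, and were then fed HFCD, a diet rich in fat and cholesterol, for 4 weeks, 10 weeks in all. NASH-CH rats, the model with cirrhosis, were studied at 24 weeks, with CCl4 and phenobarbital throughout and HFCD for the last 16 weeks. Both models therefore shared phenobarbital and CCl4, no group received HFCD alone, and the groups differed in time on study, so the parts played by toxin, drug, diet and time cannot be told apart.

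ER stress starts when unfolded proteins accumulate in the ER lumen, and liver cells, which secrete most plasma proteins, carry a large ER. The sensors Atf6 and Ern1 (IRE1) act mainly on ER chaperone and degradation genes, Ern1 by splicing the Xbp1 message into the form that encodes the active factor. The kinase Eif2ak3 (PERK) phosphorylates the translation factor eIF2 alpha, which slows general translation and favours translation of Atf4. Atf4 then acts with Ddit3 (CHOP) and C/EBP proteins on genes of amino acid supply, redox balance and cell death. Amino acid shortage, haem shortage and double-stranded RNA reach Atf4 through other eIF2 alpha kinases without ER stress. Atf4 is controlled largely by translation, which RNA levels do not show, and gene-level counts do not separate the spliced and unspliced Xbp1 messages.

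The promoters of these genes were searched for 2 well-known elements, shown here for the genes whose windows held one. RefSeq windows on GRCr8, from 250 bases before to 50 after the start, were found for 9 of the 10 genes, Atf3 being without an entry. The ER stress element, read as CCAAT and CCACG separated by 9 bases on either strand, was present in the windows of Hspa5 and Xbp1. Among all 33469 windows, 22 (0.0657%) held it. The C/EBP-ATF response element, read as TGATG, any base and AA on either strand, was present in the windows of Herpud1, Trib3 and Chac1 and in 1332 of all windows (3.98%). Capitals mark the elements, each strand is the coding strand, and in Herpud1, Trib3 and Chac1 the element reads in reverse orientation.
Hspa5 (chr3:38452943-38453015, plus strand, element 43 to 25 bases before the start): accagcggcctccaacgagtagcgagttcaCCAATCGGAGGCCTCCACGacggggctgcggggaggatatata
Xbp1 (chr14:84604528-84604606, plus strand, element 65 to 47 bases before the start): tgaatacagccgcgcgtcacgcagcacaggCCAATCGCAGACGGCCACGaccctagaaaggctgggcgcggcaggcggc
Herpud1 (chr19:10614854-10614921, minus strand, element 184 to 177 bases before the start): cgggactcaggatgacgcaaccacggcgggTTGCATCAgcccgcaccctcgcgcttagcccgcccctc
Trib3 (chr3:161275534-161275584, minus strand, element 21 to 14 bases before the start): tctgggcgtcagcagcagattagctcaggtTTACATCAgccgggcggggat
Chac1 (chr3:126795934-126796001, plus strand, element 167 to 160 bases before the start): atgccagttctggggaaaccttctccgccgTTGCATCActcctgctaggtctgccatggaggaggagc
The letters of neither element were found in the windows of Dnajb9, Atf4, Ddit3 and Asns. Among the other ER chaperone genes described below, 6 of the 17 with a window held the ER stress element, namely Calr, Canx, Creld2, Dnajc3, Ero1b and Hsp90b1.

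Library totals ranged from 19498534 to 27174015 expected counts in the control rats, from 20827770 to 29491947 in the NASH rats and from 44680344 to 60117822 in the NASH-CH rats, so depth and group cannot be told apart for NASH-CH. Levels are given below as CPM, the counts of a gene scaled to a fixed library total, after TMM scaling, and log2 fold changes are differences between group means on the log2 scale from limma-voom, with adjusted p from the Benjamini-Hochberg method over all 12904 genes and a threshold of 0.05. In that fit 204 genes were higher and 199 lower in NASH than in control rats, while NASH-CH rats had 1082 higher and 1110 lower genes. Scaling by library size alone changed these splits to 785 higher and 80 lower, and to 2781 higher and 489 lower, and shifted the all-gene median from 0.01 in both models to 0.23 and 0.27. Small non-coding RNA genes held 16.1 to 22.3% of the counts in control rats, 14.7 to 17.3% in NASH rats and 11.1 to 13.1% in NASH-CH rats. In a principal component analysis control rats 1 and 5 lay at -49.6 and -48.5 and NASH-CH rat 5 at 58.5 on the first component (25.7% of variance). Control rats 1 and 5 also had the lowest immediate early gene levels of all rats, so for many results a value without both is also given. Where none is given, how far a result rests on them is not shown.

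Hspa5 was the 1 gene of the 10 that passed the test in either model. In NASH rats none of the 10 passed the test in either direction with limma-voom, edgeR or DESeq2, against 1.58% of all tested genes higher and 1.54% lower. At an unadjusted p under 0.05 there were 3, namely Xbp1, Atf3 and Trib3, all with positive fold changes, where 21.5% of all genes reached that level. In NASH-CH rats 1 gene passed and it was lower, the chaperone Hspa5, where 8.38% of all genes were higher and 8.6% lower. None passed between NASH-CH and NASH rats by any of the 3 tools, where 1.81% of all genes were higher and 2.39% lower. In that comparison 3 genes were under an unadjusted p of 0.05 (Dnajb9, Trib3 and Asns), against 17.5% of all genes. In each of the 3 comparisons the groups overlapped for all 10 genes, while 3.16%, 7.11% and 3.46% of all tested genes separated the rats of NASH and control, of NASH-CH and control, and of NASH-CH and NASH completely. For the 10 genes the median fold change on the log2 scale was 0.34 in NASH, with 7 of 10 positive, and 0.03 in NASH-CH rats, with 5 of 10 positive, beside an all-gene median of 0.01 in both. No test of the genes as a group was run, and with 10 genes the counts of calls lay near the shares over all genes. Since RNA came from whole liver, fewer cells of a type and less RNA per cell cannot be told apart in any of these values.

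**Figure D1:**
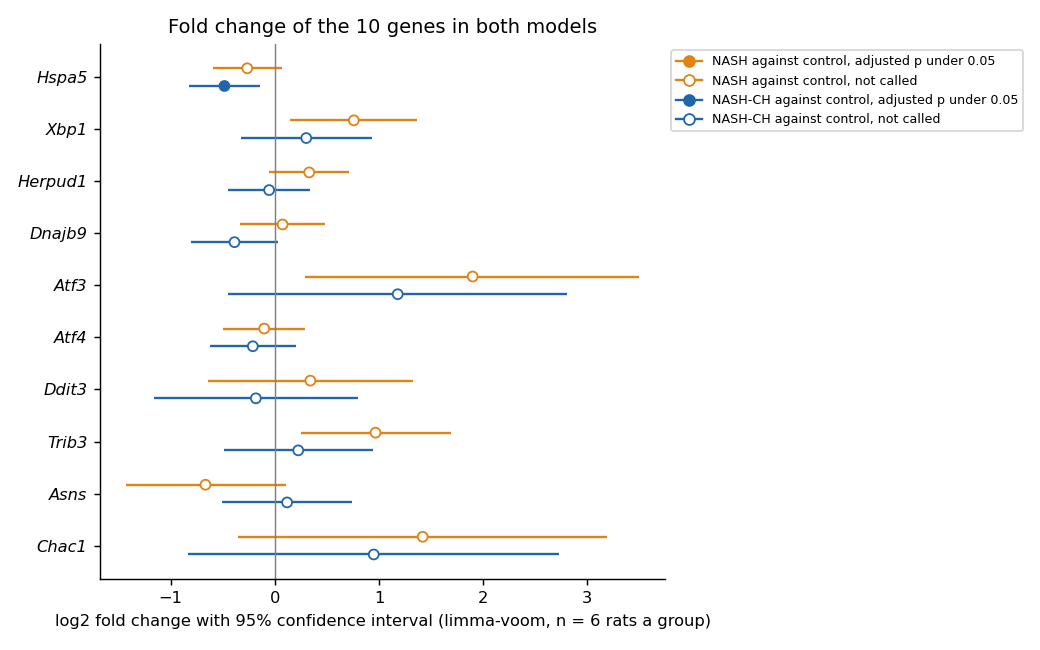
Log2 fold change of each of the 10 genes in NASH (orange) and NASH-CH (blue) against control rats, with 95% confidence intervals from limma-voom and 6 rats in each group; filled points passed an adjusted p of 0.05. Only Hspa5 in NASH-CH rats is filled, and the intervals of Atf3 and Chac1 are the widest.

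Hspa5 (ENSRNOG00000018294) encodes BiP, the main Hsp70 chaperone of the ER lumen and the protein that holds the stress sensors inactive. Its levels in control rats 1 to 6 were 908, 612, 613, 842, 708 and 502 CPM. The NASH rats had 488, 699, 429, 667, 670 and 533 CPM, and the NASH-CH rats had 538, 513, 427, 503, 591 and 401 CPM. All 6 NASH-CH rats lay below the control mean of 698 CPM ± 154 (SD, n = 6), but only 2 of them lay below the lowest control rat. Hspa5 fell in NASH-CH rats by 0.48 on the log2 scale (SE 0.16, 95% confidence interval -0.82 to -0.15, adjusted p = 0.0461, limma-voom). In NASH rats the log2 fold change was -0.27 (SE 0.16, adjusted p = 0.345), and between NASH-CH and NASH rats it was -0.22 (SE 0.16, adjusted p = 0.519). The NASH-CH call sat close to the threshold and was lost in 15 of 31 other fits, including 11 of the 18 that left out 1 rat, with adjusted p between 0.0127 and 0.307 over the 31. Without control rats 1 and 5 the log2 fold change was -0.37 (adjusted p = 0.208), and with library size alone it was -0.22 (adjusted p = 0.307).

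Hspa5 was not alone among the ER chaperones. A list of 21 other ER chaperones and foldases, the enzymes that form and shuffle disulfide bonds or isomerise prolines in the ER, was tested in the same fit. In NASH-CH rats 7 were lower and none higher, where 8.6% of all tested genes were lower and 8.38% higher. There 17 of 21 fold changes were negative and their median was -0.36. In NASH rats 2 were lower and none higher, where 1.54% of all tested genes were lower and 1.58% higher. All 21 fold changes in NASH rats were negative and the median was -0.48, beside 0.01 for all genes. Unadjusted p was under 0.05 for 13 of the 21 in each model, where 21.5% of all genes reached that level in NASH and 31.7% in NASH-CH rats. Other tools called more in NASH rats, with 4 lower by edgeR, 10 by DESeq2 and 13 with sample quality weights, and none higher. In NASH-CH against NASH rats 1 gene was higher, Txndc5, and none lower, where 1.81% of all tested genes were higher, with a median of 0.04. The summed level of the list ran from 2740 to 4780 CPM for control rats, from 2330 to 3400 CPM for NASH rats and from 2570 to 3740 CPM for NASH-CH rats, so the groups overlapped, and the lowest control value belonged to rat 6. Leaving out control rats 1 and 5 left 1 gene lower in each model and none higher, with 21 of 21 and 18 of 21 negative fold changes. With library size alone, NASH rats had 1 lower gene, and NASH-CH rats had 2 higher genes and 1 lower gene. Fewer fold changes were negative under that scaling, 15 of 21 in NASH (median -0.246) and 13 of 21 in NASH-CH rats (median -0.0993). The median of all genes was shifted upward there, and 21 of 21 and 18 of 21 lay below it.

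Sdf2l1, a stress-induced partner of ER Hsp40 chaperones, had the largest negative fold change of the list in both models. Its lowest, median and highest levels were 10.6, 23.2 and 32.2 CPM in control rats, 6.44, 9.43 and 12.5 CPM in NASH rats, and 5.62, 7.46 and 17.3 CPM in NASH-CH rats. Control rat 6 alone lay within the range of the NASH rats, and NASH-CH rat 4 alone lay above the lowest control rat. Sdf2l1 fell by 1.20 in NASH (SE 0.28, adjusted p = 0.0275, limma-voom) and by 1.43 in NASH-CH rats (SE 0.27, adjusted p = 0.00147) on the log2 scale. The NASH-CH call held in all 31 other fits with adjusted p up to 0.0158, and the NASH call was lost in 10 of 31. Manf, a secreted ER stress-responsive factor, ranged from 44.2 to 87.6 CPM in control and from 39 to 50.3 CPM in NASH-CH rats, and fell by 0.64 (SE 0.15, adjusted p = 0.00853). That call was lost in 2 of 31 fits, with library size alone and without control rats 1 and 5. Ero1b, an oxidase that recharges disulfide isomerases, fell in NASH rats by 0.60 (SE 0.13, adjusted p = 0.0181). Txndc5, a disulfide isomerase, was higher in NASH-CH than in NASH rats by 0.37 (SE 0.088, adjusted p = 0.019). The other 5 genes lower in NASH-CH rats, named after their values were seen, were the lectin chaperone Calr, the isomerases Pdia4 and Fkbp2, the co-chaperone Dnajc3, and Creld2. Their log2 fold changes ran from -0.69 for Creld2 to -0.35 for Fkbp2. Of 31 other fits, the call was lost in 16 for Calr, 15 for Creld2, 14 for Fkbp2, 12 for Dnajc3 and 3 for Pdia4.

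**Figure D2:**
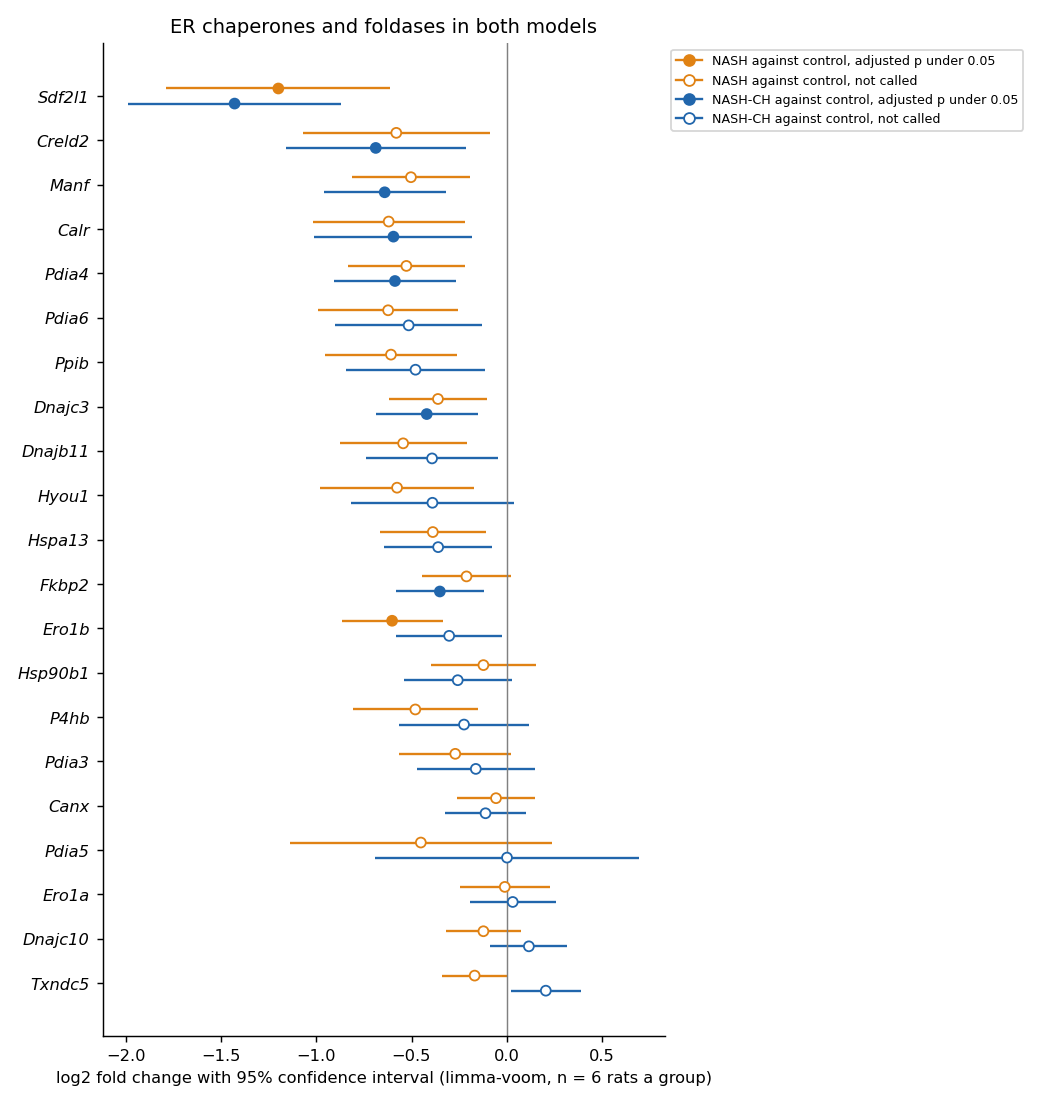
Log2 fold change of 21 ER chaperones and foldases in NASH (orange) and NASH-CH (blue) against control rats, with 95% confidence intervals from limma-voom and 6 rats in each group; filled points passed an adjusted p of 0.05. All 21 points of NASH and 17 of 21 of NASH-CH lie left of 0, with Sdf2l1 farthest.

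Hspa5 varied with the other chaperones from rat to rat. After subtraction of group means, the log2 CPM of Hspa5 followed the mean of the 21 chaperones over 18 rats with Pearson r = 0.755 (adjusted permutation p = 0.0123 over 10 genes) and Spearman rho = 0.723 (adjusted permutation p = 0.0243). Pearson r was 0.601 without the 2 rats farthest from the median, and 0.723 without control rats 1 and 5 (adjusted permutation p = 0.0626). Within groups of 6 rats r was 0.875 for the control rats, 0.796 for the NASH rats and 0.43 for the NASH-CH rats. None of the other 9 genes passed that test, and Trib3 had the lowest r at -0.583 (adjusted permutation p = 0.168). Among all tested genes the 3 most like Hspa5 were Tmed9 (r = 0.884), Manf (r = 0.874) and Ssr2 (r = 0.808), of which Manf is on the chaperone list.

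Herpud1 and Dnajb9 belong to the degradation and Hsp40 branches of the ER response. Herpud1 (ENSRNOG00000018796) encodes a membrane protein of ER-associated degradation. Its lowest, median and highest levels were 172, 204 and 286 CPM in control, 189, 296 and 338 CPM in NASH, and 136, 207 and 283 CPM in NASH-CH rats. Of the NASH rats, 3 lay above every control rat. Its log2 fold change was 0.33 in NASH (SE 0.18, adjusted p = 0.305) and -0.05 in NASH-CH rats (SE 0.19, adjusted p = 0.865), the latter turning positive, 0.19, with library size alone. Control rats 1 and 5 were the lowest control rats for Herpud1, and no Herpud1 fold change without both is given. The NASH value ran from 0.183 to 0.543 over the 31 other fits. It ran from 0.263 to 0.429 over the fits that left out 1 rat. Dnajb9 (ENSRNOG00000004006), also called ERdj4, encodes a co-chaperone of BiP. Its levels were 34, 47.3 and 60.2 CPM in control, 35.1, 46.2 and 68.4 CPM in NASH, and 25.3, 36.4 and 46.6 CPM in NASH-CH rats. Of the NASH-CH rats, 3 lay below every control and every NASH rat. The log2 fold change of NASH-CH was -0.39 against control (SE 0.20, adjusted p = 0.191) and -0.46 against NASH rats (SE 0.20, adjusted p = 0.228), and neither passed the test. Without control rats 1 and 5 the value against control was -0.58 (adjusted p = 0.0965).

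Xbp1 (ENSRNOG00000010298) encodes the factor that Ern1 activates by splicing and that serves secretory cells. Control rats 1 to 6 had 61.3, 75.9, 98, 115, 55.3 and 123 CPM. NASH rats had 84.9, 103, 213, 184, 228 and 104 CPM, and NASH-CH rats had 84, 74.5, 182, 63.4, 116 and 151 CPM. The 3 highest NASH rats exceeded every control rat and the other 3 lay within the control range. On the log2 scale the fold change was 0.76 in NASH (SE 0.29, 95% confidence interval 0.15 to 1.37, unadjusted p = 0.018, adjusted p = 0.144, limma-voom) and 0.30 in NASH-CH rats (SE 0.30, adjusted p = 0.517). Control rats 1 and 5 had the lowest Xbp1 levels of their group, and no Xbp1 fold change without both is given. Over the 31 other fits the value ran from 0.473 to 0.977 in NASH and from 0.0237 to 0.561 in NASH-CH rats. Fits that left out 1 rat gave 0.626 to 0.912 in NASH and 0.141 to 0.449 in NASH-CH rats. Plasma cells express Xbp1 at high levels, so a list of 8 B and plasma cell markers was examined. Only 2 of the 8 passed the filter, together they reached 0.436 to 1.61 CPM in the control rats, 0.847 to 1.44 CPM in the NASH rats and 0.611 to 2.48 CPM in the NASH-CH rats, and neither passed the test, nor had an unadjusted p under 0.05, in any comparison. The more abundant of both, Jchain, lay between 0.349 and 2.19 CPM. Tnfrsf17 was at 0 counts in 12 of 18 rats with at most 3 counts in any. Whether plasma cells had a part in the Xbp1 levels was not tested. The genes most like Xbp1 over rats were Hs3st3b1 (r = 0.893), Birc2 (r = 0.89) and Socs2 (r = 0.887), none of them on the lists used here.

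Genes of the translocation and degradation machinery of the ER gave few calls with limma-voom, all in the lower direction. Of 22 genes on that list 21 were tested. In NASH rats 3 were lower and none higher, beside 1.54% of all tested genes lower. Of the 21, 8 had an unadjusted p under 0.05, beside 21.5% of all genes, and the median log2 fold change was -0.17. In NASH-CH rats 1 was lower and none higher, beside 8.6% of all tested genes lower. There 5 had an unadjusted p under 0.05, beside 31.7% of all genes, and the median was -0.12. The 3 genes lower in NASH rats encode parts of the channel through which new proteins enter the ER, namely Sec61g (-0.68, SE 0.15, adjusted p = 0.0259), Sec61b (-0.63, SE 0.16, adjusted p = 0.0358) and the translocon-associated Ssr3 (-0.45, SE 0.12, adjusted p = 0.0459). Sec61b was also the 1 lower gene in NASH-CH rats (-0.56, SE 0.16, adjusted p = 0.0242). All of these calls were lost without control rats 1 and 5, when no gene of the list passed in either model. In NASH-CH against NASH rats no gene passed with limma-voom, 2 had an unadjusted p under 0.05 and DESeq2 called 1. The gene with the smallest p there was Ssr2 (0.43, SE 0.13, adjusted p = 0.0782).

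A list of 16 stress sensors and regulators of eIF2 alpha phosphorylation gave 1 call. No gene passed in NASH rats with limma-voom (3 at an unadjusted p under 0.05, and 1 called by each of edgeR and DESeq2). The smallest p belonged to the amino acid sensor Eif2ak4, also called GCN2 (-0.31, SE 0.090, adjusted p = 0.061). In NASH-CH rats 1 was higher, Mbtps1, the protease that releases active Atf6 (0.28, SE 0.088, adjusted p = 0.0363), a call lost in 11 of 31 other fits. Of all tested genes 8.38% were higher and 8.6% lower in those rats. In NASH-CH against NASH rats none passed, and 2 had an unadjusted p under 0.05. DESeq2 called none of this list in that comparison. The lowest p was that of Ppp1r15b, a subunit of the eIF2 alpha phosphatase (-0.42, SE 0.14, adjusted p = 0.101). The largest fold change in NASH rats, named after its value was seen, was that of Ppp1r15a (GADD34), the stress-induced subunit of the same phosphatase (0.70, SE 0.26, unadjusted p = 0.014, adjusted p = 0.127). In NASH-CH rats fold changes ran from -0.43 for Creb3l3 (adjusted p = 0.0508) to 0.48 for Creb3l2 (adjusted p = 0.0719). The median of the list was -0.02 in NASH and 0.07 in NASH-CH rats.

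Atf4 (ENSRNOG00000017801) itself did not pass the test in either model. Control rats 1 to 6 had 110, 203, 179, 131, 91.1 and 228 CPM, so rats 1 and 5 were the lowest and rats 2 and 6 the highest. NASH rats ranged from 105 to 164 CPM with a median of 138, and NASH-CH rats from 106 to 158 CPM with a median of 126. All 12 model rats lay within the range of the 6 control rats. The log2 fold change was -0.10 in NASH (SE 0.19, 95% confidence interval -0.50 to 0.29, adjusted p = 0.796) and -0.21 in NASH-CH rats (SE 0.20, 95% confidence interval -0.62 to 0.20, adjusted p = 0.485). With library size alone these values changed sign, to 0.11 and 0.04, and without control rats 1 and 5 they were -0.41 and -0.51 (adjusted p = 0.236 and 0.0612).

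Atf3 (ENSRNOG00000003745), a stress-induced repressor of the same family that Atf4 activates, had a very wide spread among the control rats. Control rats 1 to 6 had 16.3, 194, 131, 49.1, 6.79 and 353 CPM, a 51.9-fold range. NASH rats had 214, 436, 85.2, 271, 194 and 254 CPM, and NASH-CH rats had 136, 90.9, 168, 96.5, 131 and 214 CPM. Thus 1 NASH rat and no NASH-CH rat exceeded every control rat, and no model rat was as low as control rats 1, 4 or 5. Its log2 fold change was 1.90 in NASH (SE 0.76, 95% confidence interval 0.29 to 3.50, unadjusted p = 0.023, adjusted p = 0.158, limma-voom) and 1.18 in NASH-CH rats (SE 0.78, adjusted p = 0.315). Leaving out control rats 1 and 5 reduced the NASH value to 0.60 and turned that of NASH-CH negative, -0.11. Leaving out control rat 6 instead gave 2.37 in NASH with adjusted p = 0.0468, past the threshold.

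Ddit3 (ENSRNOG00000006789) encodes CHOP, a factor linked to cell death under lasting ER stress. Control rats 1 to 6 had 7.42, 35.5, 36.2, 15.5, 6.15 and 39.6 CPM. NASH rats had 23.7, 45.8, 6.9, 23.4, 29.1 and 33.6 CPM, and NASH-CH rats had 14.5, 11.6, 21.1, 16.2, 19.1 and 17.9 CPM. NASH-CH rats were the most alike, within a 1.81-fold range against 6.43-fold in control and 6.64-fold in NASH rats. On the log2 scale the fold change was 0.34 in NASH (SE 0.47, adjusted p = 0.72) and -0.18 in NASH-CH rats (SE 0.47, adjusted p = 0.821). The NASH value turned negative, -0.35, without control rats 1 and 5, and that of NASH-CH turned positive, 0.10, with library size alone.

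Chac1 (ENSRNOG00000014387), a glutathione-degrading enzyme and an Atf4 target, had the widest spread of the 10. Control rats 1 to 6 had 0.873, 70.7, 17.3, 11.9, 0.744 and 53.7 CPM, a 95-fold range, and its SD of log2 CPM among control rats was larger than that of 99.7% of the tested genes. The corresponding share was 99.4% for Atf3. NASH rats had 27.2, 41.7, 12.4, 43.3, 37.4 and 18.7 CPM and NASH-CH rats had 19.8, 25.2, 10.6, 35.7, 13.8 and 22.2 CPM, ranges of 3.5-fold and 3.37-fold that both lay inside the control range. The log2 fold change was 1.42 in NASH (SE 0.84, adjusted p = 0.344) and 0.95 in NASH-CH rats (SE 0.85, adjusted p = 0.466). The NASH-CH value was positive although the mean level was lower (21.2 against 25.9 CPM in control rats), since it compares means of logs. It was -0.295 with edgeR and with DESeq2, and without control rats 1 and 5 it was -0.13 in NASH and -0.59 in NASH-CH rats.

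Trib3 (ENSRNOG00000007319) encodes a pseudokinase that Atf4 and Ddit3 induce and that dampens insulin signalling through Akt. Control rats 1 to 6 had 4.42, 22.6, 13.1, 8.1, 4.86 and 16.5 CPM. NASH rats had 20.3, 19.8, 24.7, 34.9, 17.8 and 9.92 CPM, and NASH-CH rats had 9.69, 10.5, 12.1, 11.6, 12.8 and 14.9 CPM. Of the NASH rats 5 of 6 exceeded the control mean of 11.6 CPM ± 7.15 (SD, n = 6) and 2 exceeded every control rat. The log2 fold change in NASH was 0.97 (SE 0.34, 95% confidence interval 0.25 to 1.69, unadjusted p = 0.0111, adjusted p = 0.115, limma-voom), the smallest p of the 10 genes in that comparison. Without control rat 2 it was 1.21 with adjusted p = 0.0469, and without control rats 1 and 5 it was 0.47. In NASH-CH rats it was 0.23 against control (SE 0.34, adjusted p = 0.686) and -0.74 against NASH rats (SE 0.32, unadjusted p = 0.0317, adjusted p = 0.225), with all 6 NASH-CH rats below the NASH mean.

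**Figure D3:**
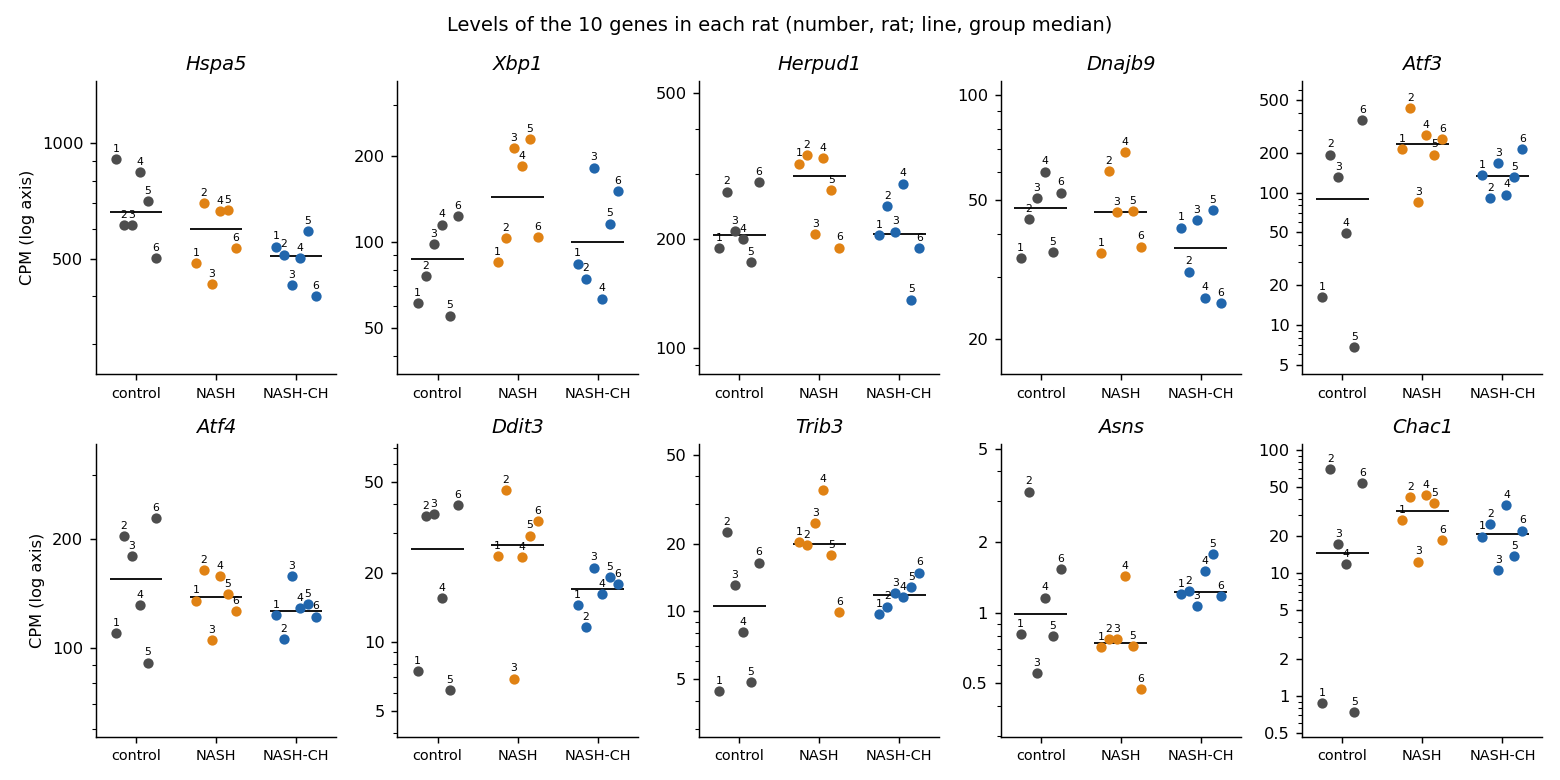
Level of each of the 10 genes in CPM (log axis) in control (grey), NASH (orange) and NASH-CH (blue) rats; each point is 1 rat with its number, and lines are group medians. Control rats 1 and 5 are the lowest of their group for Xbp1, Herpud1, Dnajb9, Atf3, Atf4, Ddit3, Trib3 and Chac1, and rat 1 is the highest for Hspa5.

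Asns (ENSRNOG00000007546), asparagine synthetase, is a classic Atf4 target of amino acid shortage and was the lowest-counted of the 10, with 11 to 85 counts in control, 15 to 34 in NASH and 57 to 137 in NASH-CH rats. Its levels were 0.81, 3.28, 0.555, 1.16, 0.793 and 1.54 CPM in control rats 1 to 6, 0.713, 0.771, 0.771, 1.43, 0.719 and 0.474 CPM in NASH rats, and 1.2, 1.24, 1.07, 1.51, 1.78 and 1.18 CPM in NASH-CH rats. Control rat 2 and NASH rat 4 were each well above the rest of their group. Its log2 fold change was -0.67 in NASH (SE 0.37, adjusted p = 0.303) and 0.12 in NASH-CH against control rats (SE 0.30, adjusted p = 0.818). Between NASH-CH and NASH rats it was 0.78 (SE 0.32, unadjusted p = 0.0236, adjusted p = 0.192), opposite in sign to the other 9 genes in that comparison, and all 6 NASH-CH rats exceeded the NASH mean of 0.812 CPM.

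The other amino acid supply and tRNA charging genes of the Atf4 programme gave few calls. Of 26 on the list 23 were tested. 1 gene was lower in both models, Pck2, the mitochondrial phosphoenolpyruvate carboxykinase, by 0.71 in NASH (SE 0.14, adjusted p = 0.0133) and by 0.45 in NASH-CH rats (SE 0.13, adjusted p = 0.0197). Of all tested genes 1.54% were lower in NASH and 8.6% in NASH-CH rats. Levels of Pck2 were 4.85 to 6.17 CPM in control, 2.31 to 4.41 CPM in NASH and 3.3 to 4.92 CPM in NASH-CH rats. NASH and control rats thus did not overlap, as was so for 3.16% of all tested genes, and neither call held without control rats 1 and 5. The list had 18 negative and 5 positive fold changes in NASH rats (median -0.28), and 17 negative and 6 positive in NASH-CH rats (median -0.09). Between NASH-CH and NASH rats none passed with limma-voom, edgeR or DESeq2, 2 had an unadjusted p under 0.05 and 21 of 23 fold changes were positive (median 0.12). That comparison and the one of NASH with control share the NASH rats, so opposite signs in them are linked. The smallest p there belonged to Wars, tryptophanyl-tRNA synthetase (0.34, SE 0.14, adjusted p = 0.191).

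Among 14 tested stress effectors of the Atf4 and Ddit3 programme, changes went both ways in NASH-CH rats, with 1 higher and 3 lower. Of all tested genes 8.38% were higher and 8.6% lower there. Against NASH rats 1 was higher and 1 lower, beside 1.81% and 2.39% of all tested genes. Vldlr, a lipoprotein receptor that Atf4 induces in liver, was the higher gene. It had 0.43 to 0.992 CPM in control, 0.54 to 1.01 CPM in NASH and 1.36 to 4.75 CPM in NASH-CH rats. NASH-CH overlapped neither group, where 7.11% of all tested genes separated it from control and 3.46% from NASH rats. The log2 fold change of Vldlr was 2.01 against control (SE 0.44, adjusted p = 0.00507) and 1.71 against NASH rats (SE 0.40, adjusted p = 0.0188). The filter of at least 10 counts in every sample removed Vldlr, so its counts were low in at least 1 rat. In the other fits the first call held, with adjusted p up to 0.0307. The second was missing from 4 of 31 fits, among them that filter and the fit without NASH rat 3. The transcription factor Cebpb was lower in NASH-CH rats by 0.89 against control (SE 0.20, adjusted p = 0.00575) and by 1.03 against NASH rats (SE 0.20, adjusted p = 0.00484), and both calls held in all 31 other fits. Atf5, a factor translated like Atf4 and abundant in liver, fell by 0.65 (SE 0.18, adjusted p = 0.0189). The third lower gene, named after its values were seen, was the hormone gene Fgf21 (-1.69, SE 0.55, adjusted p = 0.0418), lost in 14 of 31 fits. In NASH rats none passed with limma-voom, edgeR or DESeq2, 2 had an unadjusted p under 0.05, and the smallest p was that of the growth arrest gene Gadd45a (1.05, SE 0.40, adjusted p = 0.136). Control rats 1 and 5 had 17.4 and 13.3 CPM of Gadd45a, beside a control median of 42.9 CPM. No Gadd45a fold change without both is given.

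Atf3, Atf4 and Ddit3 varied together among rats that had the same treatment. Over the 45 pairs of the 10 genes, with group means removed and 18 rats, 8 pairs had an adjusted permutation p under 0.05 for Pearson r, 4 of which also passed for Spearman rho. Those 4 were Atf3 with Atf4 (r = 0.938, adjusted permutation p = 6e-04; rho = 0.847, adjusted permutation p = 0.0182), Atf3 with Ddit3 (r = 0.91 and rho = 0.893), Atf4 with Ddit3 (r = 0.896 and rho = 0.862) and Herpud1 with Chac1 (r = 0.635 and rho = 0.736). The same 4 pairs, and no other, passed without control rats 1 and 5, with r of 0.859, 0.833, 0.789 and 0.75 over 16 rats. Without the 2 rats farthest from the median of the first gene, r of these pairs was 0.878, 0.909, 0.859 and 0.726. Within groups of 6 rats, Atf3 and Atf4 had r = 0.994 among control rats, 0.894 among NASH rats and 0.441 among NASH-CH rats. The other 4 pairs joined Chac1 to Atf3 (r = 0.882), Atf4 (r = 0.829), Trib3 (r = 0.796) and Ddit3 (r = 0.782). No pair with Asns passed, nor did Trib3 with Atf4 (r = 0.745, adjusted permutation p = 0.0595) or with Atf3 (r = 0.716, adjusted permutation p = 0.0953). Chac1 and Atf3 had r = 0.962 among control rats, 0.773 among NASH rats and -0.52 among NASH-CH rats. Within NASH-CH rats Chac1 also had negative r with Atf4 (-0.67), Ddit3 (-0.638) and Trib3 (-0.192), opposite in sign to r over all 18 rats. Differences in r between groups of 6 rats were not tested. With library size alone 21 pairs passed, including the 8. Hspa5 had negative r with Atf3 (-0.361), Atf4 (-0.281), Trib3 (-0.438) and Chac1 (-0.305), none of which passed.

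**Figure D4:**
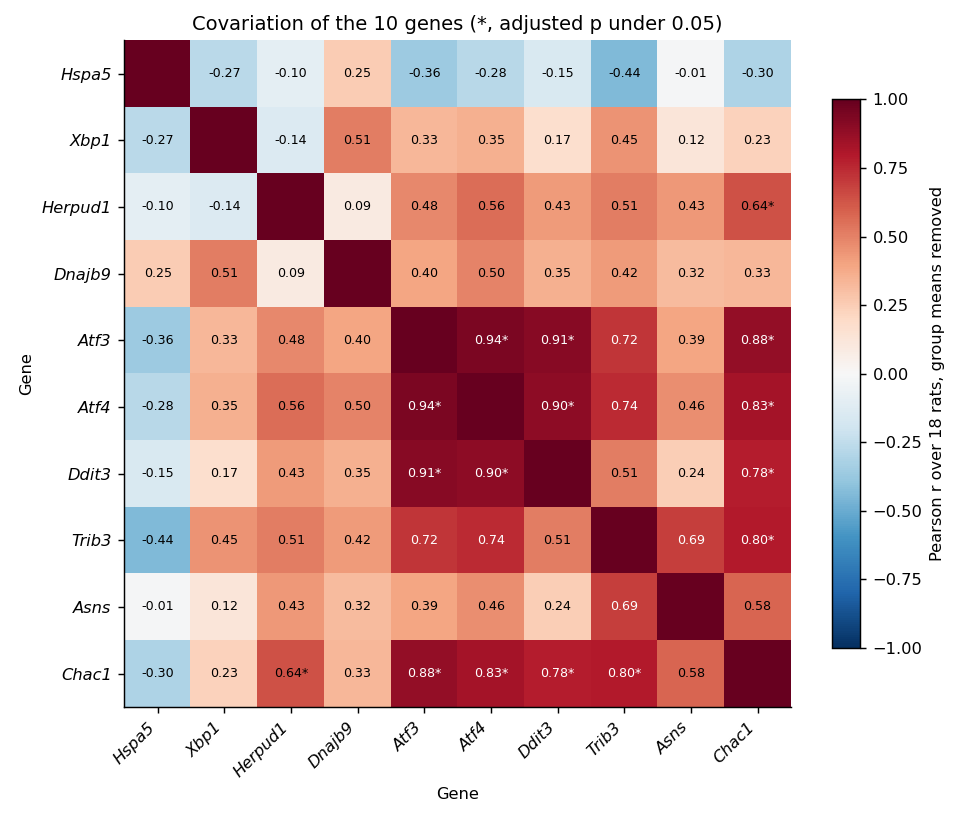
Pearson r between the 10 genes over 18 rats after group means were removed from log2 CPM; red is positive, blue is negative and asterisks mark an adjusted permutation p under 0.05 over 45 pairs. Atf3, Atf4, Ddit3 and Chac1 form the block of highest r, and the row of Hspa5 is negative except with Dnajb9.

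Immediate early genes, which respond within minutes to handling, ischaemia or growth signals, moved with the same genes. None of 13 such genes passed in any comparison with limma-voom, with 3, 2 and 1 at an unadjusted p under 0.05 in NASH, NASH-CH and NASH-CH against NASH rats. The smallest p in both models was that of Nr4a1, a nuclear receptor, with log2 fold changes of 1.47 in NASH (SE 0.61, adjusted p = 0.17) and 1.66 in NASH-CH rats (SE 0.63, adjusted p = 0.0765). Control rats 1 and 5 had 1.81 and 1.93 CPM of Nr4a1, beside a control median of 15.3 CPM. No Nr4a1 fold change without both is given. Between the models the smallest p was that of the phosphatase gene Dusp1 (-0.68, SE 0.23, adjusted p = 0.107). edgeR called none in any comparison, and DESeq2 called 1, between the models. The mean log2 CPM of the 13 genes was 4.57, 6.68, 6.38, 5.92, 4.09 and 7.13 in control rats 1 to 6, 5.61 to 7.2 in NASH rats and 5.96 to 6.61 in NASH-CH rats. Control rats 1 and 5 were the lowest of all 18, as they were for Atf3, Trib3 and Chac1. In relations added after the data were seen, this mean followed Atf3 (r = 0.967, rho = 0.92), Atf4 (r = 0.928, rho = 0.829), Chac1 (r = 0.911, rho = 0.756), Ddit3 (r = 0.891, rho = 0.746), Trib3 (r = 0.707, rho = 0.626) and Herpud1 (r = 0.617, rho = 0.647). The adjusted permutation p over 10 relations was 2e-04 for Atf3 and Atf4, and 0.0435 for Trib3, the highest of the 6. Without control rats 1 and 5, 5 of the 6 still passed and Trib3 did not (r = 0.292). Within control rats r ran from 0.894 for Herpud1 to 0.991 for Atf3. Within NASH rats it was 0.969 for Atf3 and Atf4, 0.877 for Chac1, 0.859 for Ddit3, 0.721 for Herpud1 and 0.0807 for Trib3. Within NASH-CH rats, where the mean of the 13 genes ranged least, r was 0.515 for Atf3, 0.339 for Atf4, 0.352 for Herpud1, 0.151 for Ddit3, -0.104 for Trib3 and -0.117 for Chac1. These were lower than over all 18 rats, but differences in r between groups of 6 rats were not tested. Hspa5 had r = -0.274 and Xbp1 r = 0.292, and neither passed. Whether the immediate early genes had a part in the levels of Atf3, Atf4, Chac1, Ddit3, Trib3 and Herpud1 was not tested.

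**Figure D5:**
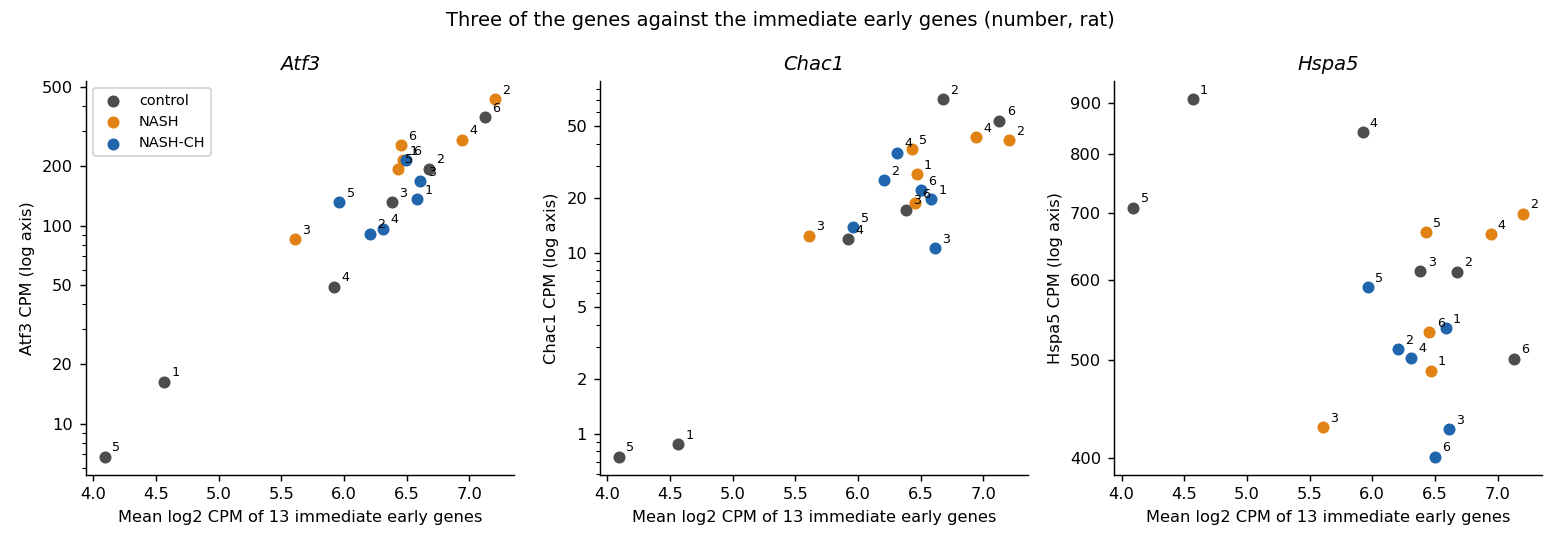
Levels of Atf3, Chac1 and Hspa5 in CPM (log axis) against the mean log2 CPM of 13 immediate early genes in control (grey), NASH (orange) and NASH-CH (blue) rats, numbered by rat. Control rats 1 and 5 lie at the lower left for Atf3 and Chac1 and in the upper left for Hspa5.

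A search of the other 12903 tested genes gave the closest companions of each gene by the same r over 18 rats. Those closest to Atf3 were Egr2 (0.965), Gdf15 (0.96) and Klf6 (0.949), and those closest to Chac1 were Nr4a1 (0.978), Egr2 (0.945) and Tnfaip3 (0.927). Klf6 and Nr4a1 also belong to the list of immediate early genes used above. Ddit3 was closest to Gdf15 (0.942), Tiparp (0.925) and Jund (0.923). Atf4 was closest to Atf3 (0.938), Ptbp1 (0.937) and Nktr (0.936), and Trib3 to Prkab2 (0.932), Map3k2 (0.931) and Pprc1 (0.93). Herpud1 was closest to Edc3 (0.88), Ddi2 (0.854) and Mfsd2a (0.844), and Dnajb9 to Tmem39a (0.872), Hnrnpf (0.87) and Rad17 (0.865). Asns was closest to AABR07066529.1 (0.845), Efcab14 (0.821) and Cyth2 (0.811). These r, like those of Hspa5 and Xbp1 above, were picked as the 3 highest of 12903 and are high in part for that reason. No r without control rats 1 and 5 is given for them. Spearman rho was higher than r for Nktr, Map3k2, Edc3, Ddi2 and Rad17. It was lower for the other companions named here, down to 0.734 for Chac1 with Egr2 and 0.631 for Asns with Cyth2. The SD of log2 CPM was larger in control than in NASH-CH rats for 7 of the 10 genes, where 52.3% of all tested genes had a larger SD in control rats, and in control than in NASH rats for 7 of the 10 beside 62.2% of all tested genes.

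Markers of the liver's cell types gave the tissue behind these values. Of all tested genes 1.58% were higher and 1.54% lower in NASH, and 8.38% higher and 8.6% lower in NASH-CH rats. Of 8 hepatocyte markers 1 was lower in NASH (Apoa1) and 3 were lower in NASH-CH rats (Alb, Ttr and Apoa1), and none was higher. Together they reached 122000 to 164000 CPM in the control rats, 85900 to 132000 CPM in the NASH rats and 64900 to 124000 CPM in the NASH-CH rats, and Alb fell by 0.61 in NASH-CH rats (SE 0.19, adjusted p = 0.0304). The list was split in NASH-CH rats, with 4 negative and 4 positive fold changes and a median of -0.15, and the secreted Apob had 0.36 (adjusted p = 0.102). The part of hepatocyte RNA in the lower ER chaperones was not tested. Of 7 tested macrophage and leukocyte markers 1 was lower in NASH (Marco), and 3 were lower (Marco, Cd163 and Clec4f) and 1 higher (Lyz2) in NASH-CH rats, with summed levels of 183 to 357, 147 to 225 and 140 to 233 CPM in control, NASH and NASH-CH rats. Of 7 stellate cell and myofibroblast markers Lrat was lower in both models, and Col1a1, Des and Tagln were higher in NASH-CH rats, with summed levels of 274 to 369, 223 to 302 and 275 to 422 CPM. None of 4 tested cholangiocyte markers passed against control with limma-voom (0 and 1 at an unadjusted p under 0.05), and their summed levels were 7.97 to 9.9, 6.29 to 11.8 and 6.27 to 47.5 CPM. Of 5 endothelial markers 1 was higher in NASH-CH rats, Vwf, with summed levels of 184 to 260, 242 to 275 and 154 to 262 CPM.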

How the data were processed

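Whole-liver RNA of 18 rats was sequenced from stranded mRNA libraries. Per the labels and the study's methods, the authors trimmed reads with Trim Galore, checked them with FastQC, aligned them to Rnor_6.0 with STAR and estimated gene levels with RSEM (versions not given in the sources used here). The deposited values are expected counts per gene and rat, not normalised, and were rounded to whole counts here. The labels and the methods name different RNA isolation kits. Nothing in the labels gave a batch. The genes and lists were chosen with earlier results of these data known. The fits without control rats 1 and 5 and the relations with list means were added after the data were seen.

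Genes passing filterByExpr (12904 of 32623) were TMM scaled and fitted in 1 limma-voom model of all 18 rats, with Benjamini-Hochberg adjustment and a threshold of 0.05 (R 4.3.3, limma 3.58.1, edgeR 4.0.16, DESeq2 1.42.0). Log2 CPM used a prior count of 2. Correlations used group-centred log2 CPM and 2-sided permutation tests with 100000 shuffles within groups, which can give no p below 1e-05. The genes named are the 10, up to 2 higher and 2 lower genes with the smallest p per pathway list and comparison, or the gene with the smallest p where none passed, the most abundant marker of each cell type and any that passed, and the 3 genes most correlated with each of the 10. Alternatives covered edgeR and DESeq2, scaling, filters, sample weights, a replicate block, removal of small non-coding RNA genes, thinning of the NASH-CH counts, a stricter threshold and leaving out each rat. The scripts were tested on simulated data. Bbc3, Cth, Itgam and Pecam1 were not matched by symbol and were not used. No libraries of a group agreed within sampling noise (smallest chi-square per degree of freedom 29.9).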

Additional observations from a re-analysis of the deposited data

Results flagged for a closer look

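Single rats stood far from the other 5 of their group for 16 of 156 sets of 6 values (10 genes and 42 named list genes in 3 groups). The cutoff is set to give about 1 in 20 for independent sets of normal values. CPM need not be normal and the sets share the same rats, so whether 16 exceeds chance was not tested. Among the 10 genes both cases were Asns, with 3.28 CPM in control rat 2 against a next value of 1.54, and 1.43 CPM in NASH rat 4 against 0.771. Among ER genes, NASH-CH rat 4 was highest for Sdf2l1 (17.3 CPM, next 8.29) and Pdia4 (267 CPM, next 204), NASH rat 4 was highest for Creld2 (18.2 CPM, next 12.4), and NASH-CH rat 6 was lowest for Sec61b (21.9 CPM, next 28). The same rat was lowest for the tRNA charging gene Wars (12.3 CPM, next 14.8). Control rat 5 was lowest for Atf5 (82.8 CPM, next 108) and highest for Clec4f (188 CPM, next 110). Among markers, the highest values were Col3a1 in control rat 1 (301 CPM, next 240), Lrat in control rat 3 (47.5 CPM, next 37.6), Epcam in NASH rat 2 (9.38 CPM, next 4.9) and NASH-CH rat 5 (23.4 CPM, next 10.2), Lyz2 in NASH rat 4 (15.8 CPM, next 10.6) and NASH-CH rat 5 (88.2 CPM, next 36.6), and Marco in NASH rat 4 (9.56 CPM, next 3.55). None of these was tested further.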

How the results depend on the processing

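The calls and fold changes of the 10 genes and the counts of 6 gene lists were recomputed under 31 alternatives, 18 of which left out 1 rat. The count of correlated pairs had 2 alternatives, each r was also computed without the 2 farthest rats, and cell type markers had no alternative. The one call among the 10 genes, Hspa5 in NASH-CH rats, was lost with library size only (log2 fold change -0.22, adjusted p = 0.307), with the 2 groups fitted alone (-0.48, adjusted p = 0.0664), at an adjusted p under 0.01 (-0.48) and without control rats 1 and 5 (-0.365, adjusted p = 0.208), so that 0 of the 10 were called under each of these. It was also lost in 11 of 18 fits without 1 rat (control 1, 3, 4 or 5, NASH 1, 5 or 6, NASH-CH 2, 3, 4 or 6), where it ranged from -0.571 to -0.404 and 0 to 1 genes were called in either model. The replicate block kept it (-0.48, adjusted p = 0.0279). Rat numbers did not pair the samples: same-numbered rats of the groups compared had mean r of 0.0516, 0.0732 and 0.0154, and with the block 214 genes were higher and 230 lower in NASH and 1045 higher and 1050 lower in NASH-CH rats.

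In NASH rats, signs turned for Dnajb9 (-0.0147 with sample quality weights, -0.126 without control rats 1 and 5), Atf4 (0.108, library size only), and Ddit3 (-0.346) and Chac1 (-0.128), both without control rats 1 and 5. In NASH-CH rats they turned for Herpud1 (0.189 library size only, 0.104 quality weights), Atf4 (0.0375) and Ddit3 (0.0992) with library size only, Asns (-0.0494 edgeR, -0.0554 DESeq2), Chac1 (-0.295 with each tool) and, without control rats 1 and 5, Atf3 (-0.111), Trib3 (-0.262), Asns (-0.11) and Chac1 (-0.592). Leaving out 1 rat gave ranges in NASH of -0.024 to 0.165 for Dnajb9, 1.28 to 2.37 for Atf3, -0.243 to 0.0154 for Atf4 and 0.769 to 1.21 for Trib3, and in NASH-CH of -0.149 to 0.0536 for Herpud1, -0.492 to 0.0425 for Ddit3 and -0.088 to 0.448 for Asns. Atf3 and Trib3 passed in NASH without control rat 6 and without control rat 2. Of 45 pairs, 21 passed with library size only and 4 without control rats 1 and 5, against 8.

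Genes called per list are given as NASH, NASH-CH and NASH-CH against NASH. For ER chaperones (2, 7, 1), NASH gave 4 with edgeR or at least 10 counts in every sample, 10 with DESeq2, 13 with quality weights, 1 with library size only or without control rats 1 and 5, and 0 at p under 0.01. NASH-CH gave 3 with library size only or 2 groups alone, 4 with the replicate block, 2 at p under 0.01 and 1 without control rats 1 and 5, and the last comparison 0 at p under 0.01. Leave-one-out ranges were 1 to 12, 3 to 11 and 0 to 1. For translocation and degradation (3, 1, 0), NASH gave 5 with DESeq2, 1 with library size only, no filter or 2 groups alone, and 0 at p under 0.01 or without control rats 1 and 5. NASH-CH gave 2 with edgeR, library size only or no filter, 4 with DESeq2 and 0 at p under 0.01 or without those rats, and the last 1 with DESeq2, library size only, no filter or quality weights (0 to 4, 0 to 3, 0 to 1). For sensors (0, 1, 0), NASH gave 1 with edgeR, DESeq2 or quality weights. NASH-CH gave 2 with edgeR, DESeq2 size factors or no filter, 3 with DESeq2, 4 with library size only and 0 with 2 groups alone or at p under 0.01, and the last 1 with quality weights (0 to 1, 0 to 2, 0 to 1). For amino acid genes (1, 1, 0), NASH gave 3 with DESeq2 and 4 with quality weights, both models 0 at p under 0.01 or without control rats 1 and 5, and the last 1 with 2 groups alone (1 to 4, 1 to 2, 0). For effectors (0, 4, 2), NASH-CH gave 2 at p under 0.01, and the last 1 at p under 0.01, with at least 10 counts or with 2 groups alone (0, 3 to 4, 1 to 2). Immediate early genes (none) gave 1 in NASH-CH with library size only, quality weights or without control rats 1 and 5, and 1 in the last with DESeq2 (0, 0 to 1, 0 to 1). Over all genes, NASH calls were 325 higher and 327 lower with edgeR, 570 and 658 with DESeq2, 713 and 796 with quality weights, and 38 and 28 without control rats 1 and 5, where NASH-CH had 474 and 583. Without a filter NASH-CH had 1529 higher and 3966 lower. The cause of these shifts was not tested. Depth left Asns with as few as 11 counts in a control rat.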
